A study of Mus musculus with 4 samples.

Results

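Open chromatin was described at 9 mouse genes of the major histocompatibility complex (MHC) class I pathway, out of 21755 protein-coding genes on the autosomes and X. The 9 genes were given by name: the class I heavy chain genes H2-K1, H2-D1, H2-Q7 and H2-T23, the light chain gene B2m, the peptide loading genes Tap1, Tap2 and Tapbp, and the transactivator gene Nlrc5. For each gene, the DNase-seq peaks and hotspots from 30 kb before the gene to 30 kb after it were taken from the deposited lists. The sites described were thus chosen by the presence of those peaks and their scores, which are given as a description, with no test.

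The cells were mouse acute myeloid leukemia (AML) cells of strain C57BL/6J, labelled as in vitro differentiated cells, with age and developmental stage unknown and sex not collected. There were 4 libraries, 2 for each of the 2 biological replicates. Both biological replicates carry the same donor in the labels, and no treatment, time point, genetic change or control is named, so the labels do not say how the leukemia arose or what the cells were differentiated from. DNase-seq cuts accessible DNA in nuclei with DNase I and sequences the cut ends. Each biological replicate had 1 list of 150 bp peaks and 1 list of wider hotspots from its pooled libraries, so no value below has a replicate error.

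An MHC class I molecule is a heavy chain held together with β2-microglobulin and a short peptide made in the cytosol. The TAP1-TAP2 transporter carries peptides into the endoplasmic reticulum, where tapasin, the product of Tapbp, bridges the transporter and the empty heavy chain until a peptide binds. The finished complex goes to the cell surface and is read by CD8 T cells and natural killer cells, which makes it central to how leukemia cells are seen by the immune system. Class I and B2m promoters are known to hold an SXY module, a row of boxes bound by RFX, CREB/ATF and NFY proteins, through which NLRC5 acts. Upstream of it lie boxes for NF-κB and for interferon regulatory factors (IRF).

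The sequences just upstream of the gene starts of H2-K1, H2-Q7 and B2m hold motif matches in the order of those boxes, and are printed because both replicates had peaks on them. Each is the 200 bases before the annotated gene start on GRCm38 (mm10), read 5′ to 3′ on the gene's strand and lying outside annotated exons. Capitals mark exact matches on either strand to NF-κB (GGGNNTTCC), the core of a cAMP response element (CRE), the X2 box (TGACG), the NFY or Y box (CCAAT, or ATTGG on the other strand) and IRF (GAAANNGAA). Other spellings of these boxes were not searched and stay in lower case. A sequence without an IRF match here may thus still hold an IRF box. H2-K2 is a class I pseudogene, shown because a peak at its start had the same scores as the one at H2-K1.
H2-K1, chr17:34000348-34000547, minus strand: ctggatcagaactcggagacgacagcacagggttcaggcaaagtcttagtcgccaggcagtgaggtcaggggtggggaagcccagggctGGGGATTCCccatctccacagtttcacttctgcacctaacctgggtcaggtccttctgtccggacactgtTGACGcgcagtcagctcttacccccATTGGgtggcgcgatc
H2-Q7, chr17:35438955-35439154, plus strand: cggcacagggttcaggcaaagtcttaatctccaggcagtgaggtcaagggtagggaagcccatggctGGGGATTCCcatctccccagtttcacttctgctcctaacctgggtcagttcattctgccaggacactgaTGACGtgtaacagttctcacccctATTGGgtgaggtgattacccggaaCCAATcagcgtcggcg
B2m, chr2:122147486-122147685, plus strand: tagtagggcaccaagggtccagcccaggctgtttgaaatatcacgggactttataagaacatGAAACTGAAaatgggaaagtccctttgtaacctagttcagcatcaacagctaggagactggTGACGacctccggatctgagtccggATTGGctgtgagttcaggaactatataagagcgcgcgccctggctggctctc
H2-K2, chr17:33978828-33979027, minus strand: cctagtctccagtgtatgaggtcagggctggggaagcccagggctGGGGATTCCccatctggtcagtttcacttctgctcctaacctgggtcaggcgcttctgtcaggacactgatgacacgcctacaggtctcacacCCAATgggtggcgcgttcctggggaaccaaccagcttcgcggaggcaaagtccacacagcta

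At H2-D1 the boxes lie downstream of the GENCODE gene start, before the RefSeq start, and 2 stretches of 30 bases on the plus strand show them.
H2-D1 NF-κB match, chr17:35262913-35262942: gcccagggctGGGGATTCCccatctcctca
H2-D1 CRE core and Y box, chr17:35262993-35263022: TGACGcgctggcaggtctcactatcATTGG

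The spacing of the boxes was nearly the same in all 4 genes that hold them. Of these, H2-K1, H2-D1 and H2-Q7 are alike in sequence around their starts. Local alignments of 1000 bases around each GENCODE gene start gave 82.1% to 86.7% identity in pairs, over 664 to 982 columns. The spacings and matches of these heavy chain genes are thus not independent of each other. From the first base of the CRE core to the first base of the Y box were 25 bases in H2-K1, H2-D1 and B2m and 24 bases in H2-Q7. From the NF-κB match to the CRE core were 70 bases in H2-K1 and H2-D1 and 69 bases in H2-Q7. H2-T23 held no match to these 4 motifs in its 200 upstream bases, and its RefSeq promoter held IRF and NFY matches but neither TGACG nor NF-κB. B2m held no match to NF-κB as spelled here, and its IRF match began 61 bases before its CRE core. The pseudogene H2-K2 kept the NF-κB match and a CCAAT but held no TGACG match in this window. Among 27025 genes in the RefSeq promoter table (300 bases around the start, GRCm38), 38 genes, or 0.141%, held TGACG followed by ATTGG at 24 or 25 bases on one strand. Those 38 included H2-K1, H2-D1, H2-Q7 and B2m, which are 4 of the 7 members in that table, and H2-M3 among 21 other class I genes. Of the lists of immunoproteasome, loading chaperone, transcription factor, interferon receptor and class II genes, none of the genes in the table held it. This pair was chosen after the sequences were seen, and both motifs apart from their spacing occurred together in 7.73% of the 32851 promoters in the table.

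**Figure D1:**
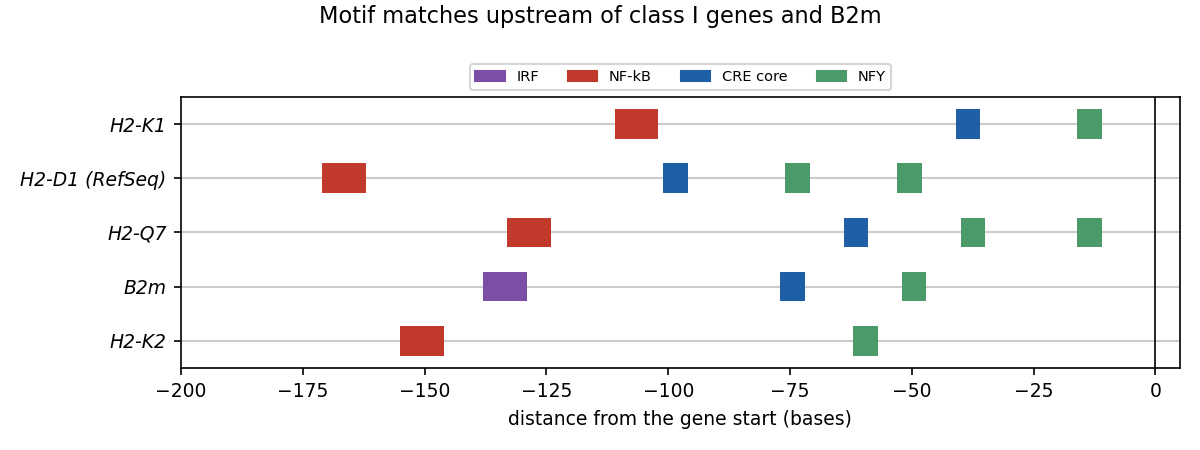
Positions of exact motif matches in the 200 bases before the start of H2-K1, H2-D1 (RefSeq start), H2-Q7, B2m and the pseudogene H2-K2, with distance from the gene start in bases on the x axis and 1 gene per row. The CRE core (blue) and the next NFY match (green) stand 24 or 25 bases apart in H2-K1, H2-D1, H2-Q7 and B2m, and H2-K2 lacks the CRE core.

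Both replicates had a peak within 1 kb of a transcript start, here called a promoter peak, at each of the 9 genes. Over all coding genes 71.1% had one in replicate 1 and 58.8% in replicate 2. At 8 of the 9 genes a replicate 1 promoter peak overlapped one of replicate 2 by at least 1 bp, here called shared, against 58.2% of coding genes. The exception was Tap1, whose promoter peaks in the 2 lists did not overlap, a state found at 0.483% of coding genes. With hotspots in place of peaks, the promoters of all 9 genes were shared, against 59.5% of coding genes.

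Peak scores are the authors' own whole numbers. On the chromosomes used they spanned 1 to 150 in replicate 1 and 2 to 138 in replicate 2. The sources used here do not give how they were computed or scaled, so a score is read by its rank percentile within its own list, where 100 is the strongest. Among coding genes with a promoter peak, the strongest one had a median score of 143 in replicate 1 and 75 in replicate 2. The medians over the 9 genes were 147 and 79.

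The label was checked at marker genes. Promoter peaks were shared at 7 of 7 myeloid and leukocyte genes, among them Spi1 (scores 150 in replicate 1 and 94 in replicate 2) and Cebpa (148 and 97), which encode the myeloid transcription factors PU.1 and C/EBPα. They were shared at 0 of 4 T cell genes and 0 of 3 B cell genes, and at 1 of 3 in each of the fibroblast (Col1a1), epithelial (Epcam) and endothelial (Pecam1) lists. Over all coding genes the share was 58.2%. Replicate 1 had 236215 peaks and replicate 2 had 67438 on the autosomes, X and Y, with sequencing depth unknown.

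The classical heavy chain genes H2-K1 and H2-D1 had some of the strongest promoter peaks of the group. H2-K1 (chr17:33996017-34000347, minus strand) had a shared peak over its start at chr17:34000316-34000465, with scores of 150 in replicate 1 and 92 in replicate 2. Those scores stood at the 99.6th and 96.5th rank percentile of their lists. This peak covers the NF-κB match, the CRE core and the Y box printed above, while the replicate 2 peak, at chr17:34000296-34000445, covers the CRE core and Y box but not the NF-κB match.

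At H2-D1 (chr17:35262730-35267499, plus strand) the strongest promoter peaks scored 150 and 98, at the 99.6th and 98.4th percentile. They lay side by side and overlapped by 10 bp: chr17:35262756-35262905 in replicate 1 and chr17:35262896-35263045 in replicate 2. The NF-κB match, the CRE core and the Y box fall inside the replicate 2 peak and outside the replicate 1 peak. Hotspots of both lists span all of them, at chr17:35262560-35263534 in replicate 1 and chr17:35262596-35263206 in replicate 2. A further promoter peak at chr17:35263636-35263785 was shared over 150 bp, with scores of 97 and 27.

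H2-Q7, a nonclassical heavy chain of the Qa-2 family, and H2-T23, which encodes the Qa-1 heavy chain recognised by natural killer cells, ranked lower. H2-Q7 (chr17:35439155-35443773) had scores of 129 and 69 at a shared peak just upstream of its start, chr17:35438936-35439085, at the 88th and 86.7th percentile of their lists. H2-T23 (chr17:36029773-36032855, minus strand) had 136 and 35 at chr17:36032596-36032745, at the 91.4th and 50.6th percentile. The H2-T23 peak was the lowest of the 9 in replicate 2, and in replicate 2 the hotspot under it carried a −log10 q of 2.3. For H2-K1, H2-D1, H2-Q7, B2m, Tap1, Tap2 and Tapbp the replicate 2 hotspots at or nearest the start reached the ceiling of 100.

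B2m (chr2:122147686-122153083, plus strand), the light chain gene shared by the class I molecules, had a single shared promoter peak. It lay at chr2:122147556-122147705, with scores of 147 and 79 at the 97.4th and 91.3rd percentile. The peak covers the CRE core and the Y box of the B2m sequence above. The IRF match, which begins 138 bases before the start, has its last base at the upstream end of the peak.

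Tap1 and Tap2 encode the 2 chains of the peptide transporter and lie close together on chromosome 17, with Psmb8 between them and Psmb9, which encodes an immunoproteasome subunit, on the far side of the Tap1 start. At the start that Tap1 (chr17:34187553-34197225) shares with Psmb9, replicate 1 had a peak at chr17:34187576-34187725 with a score of 147, and replicate 2 had one at chr17:34187376-34187525 with a score of 94. Both were high in their lists, at the 97.4th and 97.2nd percentile, and a gap separates them. Each lies inside a hotspot of its own list, and these hotspots overlap (chr17:34186859-34188402 in replicate 1 and chr17:34187256-34187881 in replicate 2). The replicate 1 peak held an IRF match at 146 bases after the Tap1 start, and the replicate 2 peak held the CRE core at 83 bases before it.

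Tap2 (chr17:34203527-34216321) had 2 shared promoter peaks, both inside the gene. The stronger, at chr17:34204396-34204545, centred 944 bases after the gene start, scored 136 and 61, at the 91.4th and 82.2nd percentile, and held an IRF match. The other, at chr17:34205976-34206125, scored 134 and 34. The peak nearest the gene start, at chr17:34203556-34203705, was in replicate 1 alone, with a score of 92.

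Tapbp (chr17:33915899-33929292) had the highest replicate 2 promoter score of the 9 genes. Its peak at chr17:33915956-33916105, beside the start it shares with Zbtb22, scored 150 and 100, at the 99.6th and 98.8th percentile. A further 4 promoter peaks inside the gene were shared. The first of them, at chr17:33919476-33919625 and near the start that RefSeq uses, scored 150 and 69.

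Nlrc5 (chr8:94434356-94527272), the transactivator of class I genes, had a shared peak over its start at chr8:94434236-94434385 with scores of 129 and 48. Their percentiles were 88 and 70.6. The replicate 2 hotspot there had a −log10 q of 5.52. By mean rank over both lists the order was Tapbp (99.2), H2-D1 (99), H2-K1 (98.1), Tap1 (97.3), B2m (94.3), H2-Q7 (87.4), Tap2 (86.8), Nlrc5 (79.3) and H2-T23 (71). Without replicate error, neighbours in that order cannot be told apart.

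**Figure D2:**
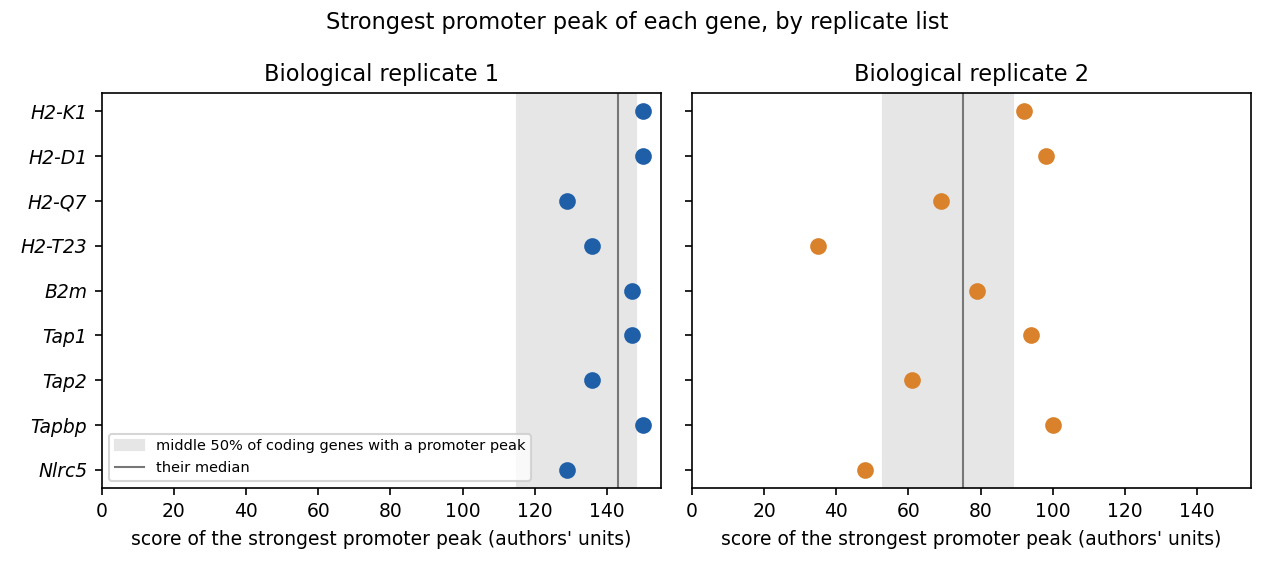
Score of the strongest promoter peak of each gene (x axis, authors' units) in the replicate 1 list (left) and the replicate 2 list (right), with grey bands for the middle 50% and lines for the median of coding genes with a promoter peak. H2-K1, H2-D1 and Tapbp lie right of the band in both lists, and H2-T23 and Nlrc5 lie left of it in replicate 2.

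Beyond the promoters, the genes with their 30 kb flanks form 8 separate stretches, since those of Tap1 and Tap2 join, and cover 637281 bp. They held 277 peaks of replicate 1 and 98 of replicate 2. Of the replicate 1 peaks 91 were shared, which is 32.9% (exact 95% binomial interval 27.4 to 38.7, counting error only), against 26.1% of all replicate 1 peaks. The interval takes peaks as independent, though some overlap, so it is not a test against that 26.1%. With the replicate 1 list shortened to the length of the replicate 2 list the direction turned, with 65.5% shared in these stretches and 70% of all peaks. From the other side, 88 of the 98 replicate 2 peaks were shared (89.8%, against 91.9% of all), and the other 10 lay in replicate 1 hotspots. Some peaks of a list overlap each other, and after merging them the counts were 251, 89 and 81 shared sites.

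Many of these were promoter peaks: 49 of the 91 shared peaks, or 53.8%, lay within 1 kb of a coding transcript start, against 31.8% of shared peaks genome-wide. The stretches touch 39 coding genes, so most of these promoters belong to neighbours. Within promoters 43% of replicate 1 peaks were shared, against 44.2% genome-wide, and outside promoters 25.8%, against 22%. The median peak score in the stretches was 85 in replicate 1, against 74 over all peaks, and 47 in replicate 2, against 35. At the edge of the window, 44 replicate 1 peaks, 13 of them shared, lay 25 to 30 kb from a gene, and 45, 17 of them shared, lay 30 to 35 kb away.

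All 9 windows held at least 1 shared peak, as did 82.4% of coding genes. The density of shared peaks ranged widely. It was 34.2 per 100 kb at H2-K1, 24.5 at Tapbp and 18.5 at H2-D1. The values were 12.7 at H2-T23, 11 at Tap2, 10.8 at H2-Q7 and 10 at Tap1. B2m and Nlrc5, the members outside chromosome 17, had 6.12 and 6.54. Their median was 11, against 4.88 for coding genes, whose middle 50% ran from 1.56 to 8.68. H2-K1 stood at the 99.95th percentile of coding genes and Tapbp at the 99.59th, while B2m stood at the 58.76th and Nlrc5 at the 62.21st. Several shared H2-K1 peaks overlap each other and are counted separately.

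**Figure D3:**
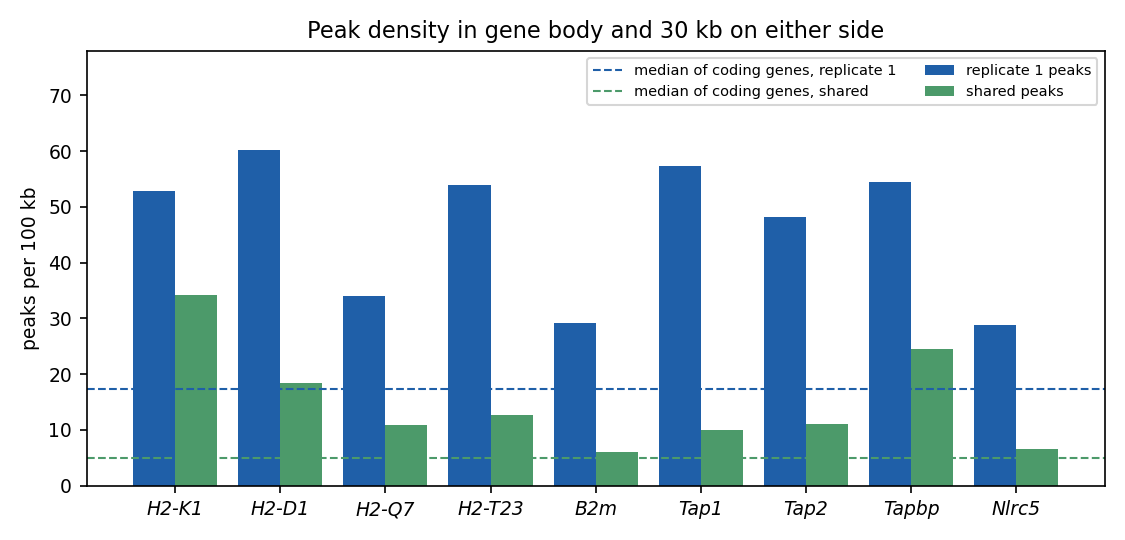
Peaks per 100 kb (y axis) in each gene with its 30 kb flanks, for replicate 1 (blue bars) and for shared peaks (green bars), with dashed lines at the medians of coding genes (17.3 and 4.88). H2-K1 has the densest shared peaks (34.2), and B2m (6.12) and Nlrc5 (6.54) lie near the median line.

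The H2-K1 window held 34 peaks of replicate 1 and 23 of replicate 2, of which 22 of the first were shared. Most of the shared ones, 16, lay outside coding promoters, and many of these sat between H2-K1 and the pseudogene H2-K2 downstream of it. At the start of H2-K2 (chr17:33974659-33978827, minus strand) the peak at chr17:33978836-33978985 scored 150 and 92, the same as the H2-K1 promoter peak. The 36-base words of the H2-K2 peak each occurred at 1 place in the genome, as did 95.7% of those of the H2-K1 peak. Next to it lay a block of overlapping peaks with chr17:33981216-33981365 in its middle, scored 146 and 79. In that peak 67.8% of 36-base words were unique.

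In the H2-D1 window the strongest shared peaks outside promoters lay upstream of the gene, at chr17:35259176-35259325 (scores 150 and 68) and chr17:35258256-35258405 (135 and 66), and 1 lay downstream at chr17:35274896-35275045 (118 and 62). These stand among 39 replicate 1 peaks, 12 of them shared, the others of which include the promoters of Ddx39b and Atp6v1g2. H2-T23 had 34 replicate 1 peaks and 8 shared ones. Outside promoters its strongest shared peaks were chr17:36023736-36023885, between H2-T23 and H2-T24 (143 and 47), and chr17:36060956-36061105 (116 and 47). H2-Q7 had 22 and 7. Its strongest shared peak outside promoters, chr17:35465776-35465925, scored 93 and 37, the lowest such pair in replicate 1 among the 9 windows.

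The B2m window had the fewest peaks, 19 in replicate 1 and 4 in replicate 2, each of the 4 shared. One shared peak lay outside promoters, at chr2:122156056-122156205 in an intron of Patl2 downstream of B2m, with scores of 130 and 39. The strongest B2m window peak without a counterpart, chr2:122164416-122164565, scored 126. Spg11, which encodes spatacsin, and Trim69 supplied the other shared peaks at their promoters.

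Tap1 had 40 replicate 1 peaks with 7 shared and Tap2 had 35 with 8 shared, and their windows overlap, so peaks between them count for both. Shared peaks outside promoters included chr17:34171216-34171365, upstream of Tap1 (145 and 60), chr17:34210676-34210825, in an intron of Tap2 (139 and 35), and chr17:34235096-34235245, between Tap2 and H2-Ob (144 and 68). Psmb8, the immunoproteasome gene between them, had a shared promoter peak scored 146 and 73. The Tapbp window had 40 replicate 1 peaks with 18 shared, of which 2 lay outside promoters, so its high density was a density of promoters. Those 2 were chr17:33947496-33947645 in an intron of Wdr46 (144 and 37) and chr17:33897236-33897385 (118 and 37).

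Nlrc5, the longest of the 9 genes, had 44 replicate 1 peaks with 10 shared, and 7 of the shared ones lay outside promoters. The strongest were chr8:94428076-94428225, upstream of the start (144 and 61), and a pair in an intron of Nlrc5 at chr8:94492496-94492645 (136 and 64) and chr8:94492156-94492305 (124 and 41). The first and the second scored above the Nlrc5 promoter peak in both lists. A strong replicate 1 peak downstream of the gene, chr8:94530796-94530945, scored 142 with no counterpart in replicate 2.

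**Figure D4:**
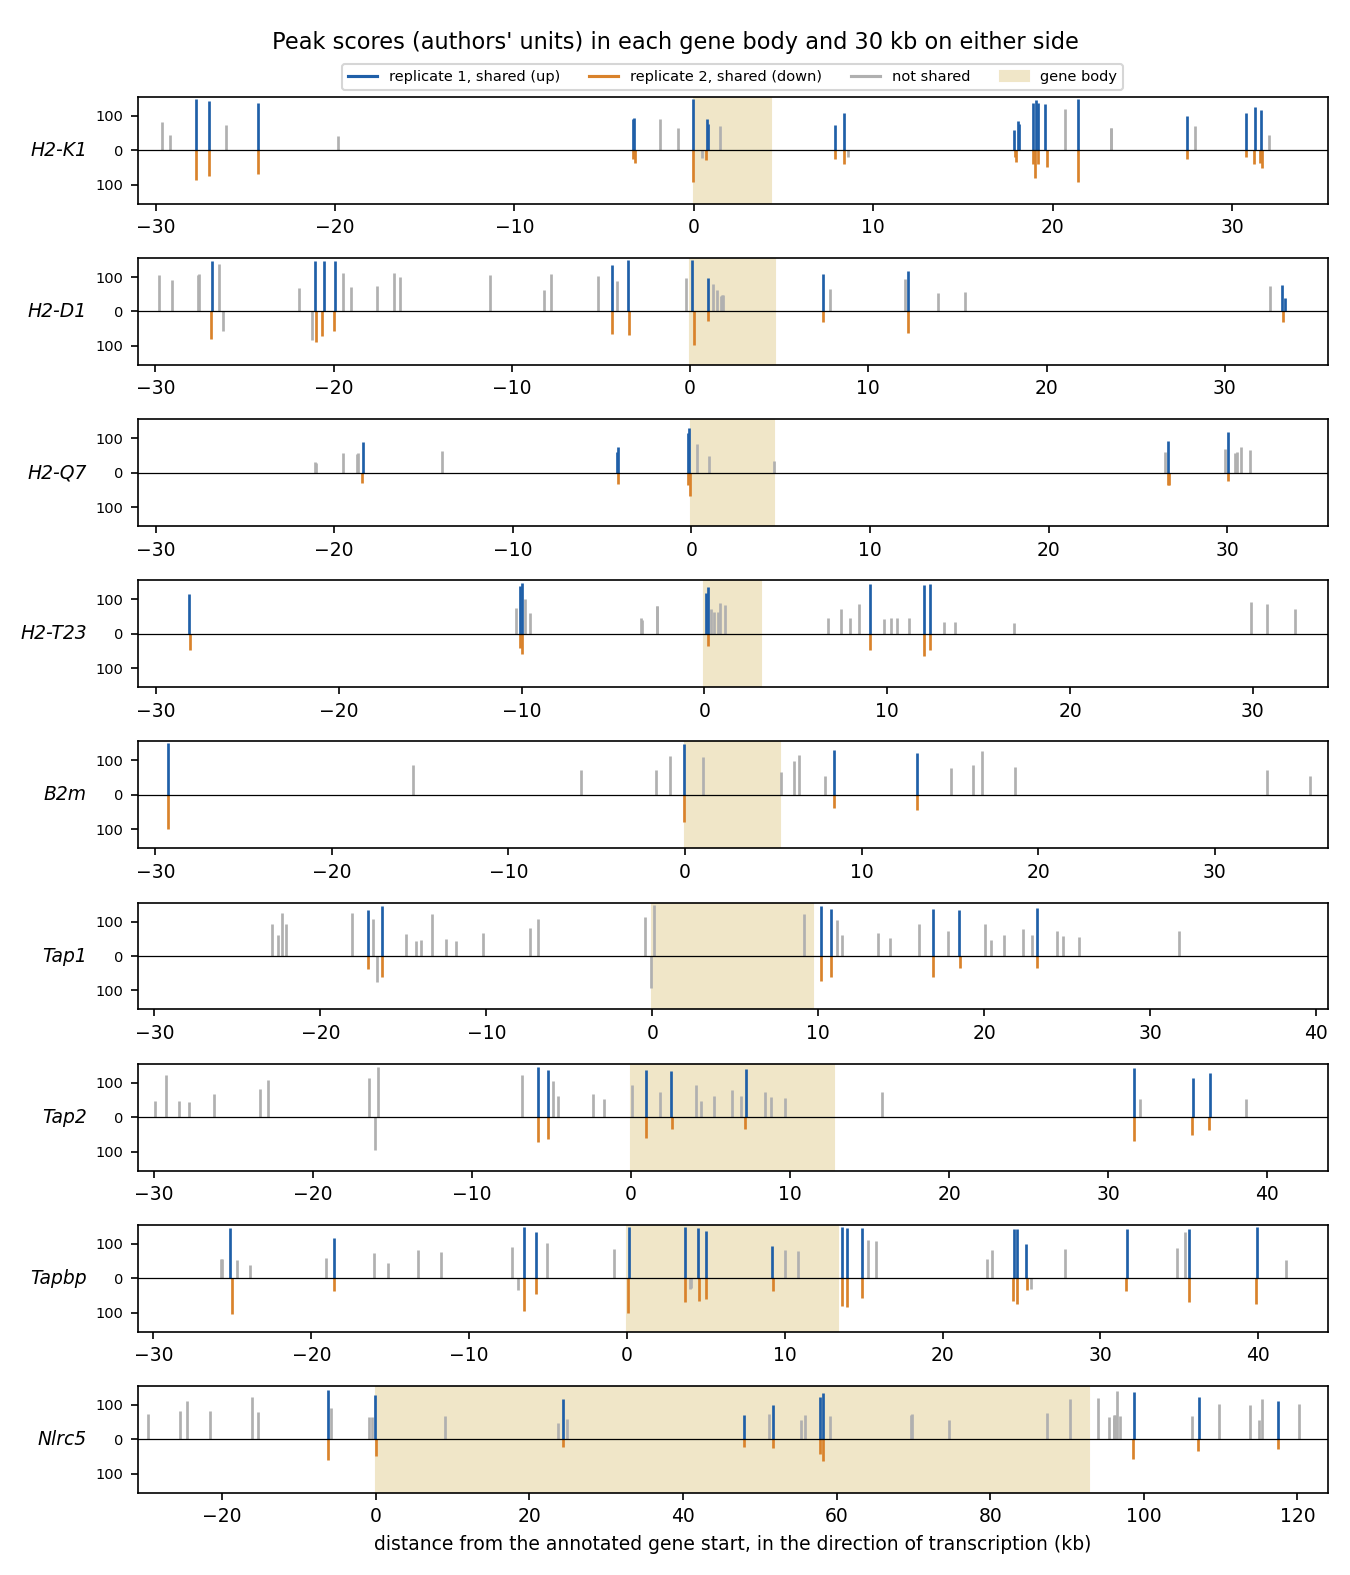
Peaks in each gene body (shaded) and its 30 kb flanks, placed by distance from the annotated gene start in the direction of transcription (x axis, kb), with replicate 1 scores drawn up and replicate 2 scores drawn down in the authors' units. Shared peaks are coloured and others grey. H2-K1 has a block of shared peaks near 20 kb downstream, Tapbp has shared peaks along its whole window, and at Tap1 the start carries a grey peak in each list.

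Class I genes share stretches of identical sequence, so a short read from one can match another. The sources used here do not say how the authors treated reads with several places, so uniqueness was measured on the genome: the share of 36-base words of a region that occur at 1 place. The median replicate 1 peak was fully unique in the windows of H2-D1, B2m, Tap1, Tap2, Tapbp and Nlrc5. It was 87% unique at H2-K1, 86.5% at H2-T23 and 63.9% at H2-Q7. Over all 277 peaks, 71.1% had at least 90% unique words, against 91.8% of every 100th replicate 1 peak of the genome (2363 peaks).

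H2-Q7 was the member with the least unique sequence: 26.7% of the words of its gene body and 25.3% of those of its window were unique, and 63.5% of those of its promoter peak. Where the other copies lie was looked up for the words of the gene and 1 kb on each side that occur at 2 to 6 places. Of 3988 such words at H2-Q7, 66.8% occurred at or near H2-Q5 and 51.7% at or near H2-Q6. H2-T23 had 56% unique words in its gene body. Of its 1683 words at 2 to 6 places, 83.6% also occurred at or near Gm7030 and 80.2% at or near H2-T-ps. H2-K1 and H2-D1 had 70.7% and 73.1%, Nlrc5 had 88.5%, and B2m, Tap1, Tap2 and Tapbp from 95.6% to 97.9%. Shared peaks were as often unique as others, with 71.4% of 91 and 71% of 186 at 90% or more. In the H2-K1 window 41.2% of replicate 1 peaks had at least 90% unique words, 23.5% with words of 24 bases and 70.6% with words of 50. The part of repeated sequence in the counts at H2-K1, H2-Q7 and H2-T23 was not tested.

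**Figure D5:**
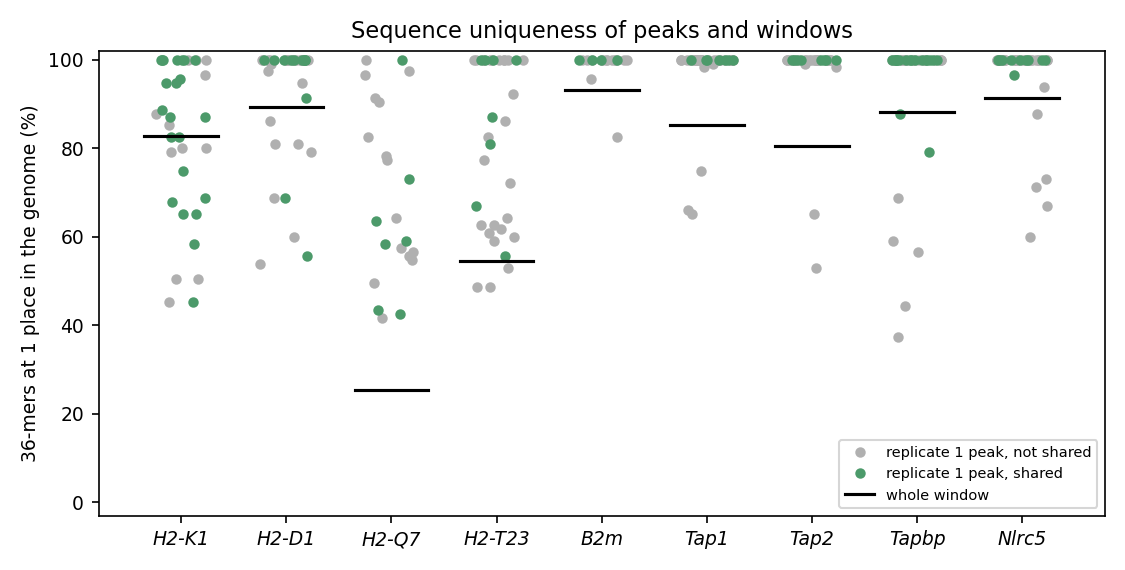
Share of 36-base words that occur at 1 place in the genome (y axis, percent) for each replicate 1 peak in the window of each gene (points, green where shared) and for the whole window (black line). The H2-Q7 window line lies at 25.3% and the H2-T23 line at 54.6%, below those of the other 7 genes.

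Across the class I family on chromosome 17, peaks within 300 bp of the gene start separated some copies from others. Shared peaks stood at H2-K2, H2-K1, H2-D1, H2-Q4 (148 and 83), H2-Q7, H2-T24 (141 and 65), H2-T23, H2-T22 (148 and 59), H2-T-ps (126 and 37) and H2-T10 (146 and 63). A replicate 1 peak alone stood at H2-Q6 (63), H2-Q10 (74) and H2-Bl (65). No peak of either list stood there at H2-Q1, H2-Q2, H2-Q3, H2-Q5 or H2-T3. The split depends on the window. Within 1 kb of any transcript start, H2-Q1 (40 and 17) and H2-Q10 (119 and 25) had shared peaks, and H2-Q2 had a replicate 1 peak (69). Copies with and without a shared peak lie side by side, H2-Q7 next to H2-Q6 for example, and share sequence as given above. Uniqueness was not measured at the start of every copy, and how reads with several places were treated is unknown. A copy without a peak is therefore not read as closed.

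In the strongest replicate 1 promoter peak of each gene, further motifs were counted beside their share in 19651 shared promoter peaks of the genome. Those are all shared replicate 1 promoter peaks, not only the strongest of each gene. NF-κB matches were in the peaks of H2-K1 and H2-Q7 (3.79% of the genome's peaks), IRF matches in those of Tap1 and Tap2 (3.41%), and CRE cores in those of H2-K1 and B2m (19.7%). NFY matches were in the peaks of H2-K1, B2m and Tapbp (23%), and C/EBP matches (TTNCNNAA) in those of H2-D1, B2m, Tap1 and Tap2 (17.9%). The CTCF core AGNNGGCGC was in the Tap2 and Nlrc5 peaks (8.51%). None of these 9 replicate 1 peaks held KLF/SP (GGGCGG, 44.9%), PU.1-type ETS (GAGGAAGT, 3.16%), generic ETS (CCGGAAGT, 4.37%), AP-1 (TGANTCA, 3.33%) or RUNX (TGTGGTTT, 0.84%). Each motif was searched on both strands, in the given spelling only, and a match is not a bound site. A missing match, as for IRF in the peaks of the heavy chain genes, is not read as a missing box.

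The strongest replicate 2 promoter peaks, which sit differently, gave other counts. The genome shares beside them are still those of shared replicate 1 promoter peaks, since none were counted for replicate 2 peaks. CRE cores were in those of 5 genes (H2-K1, H2-D1, H2-Q7, B2m and Tap1, against 19.7%) and NFY matches in those of 5 (H2-K1, H2-D1, H2-Q7, B2m and Tapbp, against 23%). NF-κB matches were in those of H2-D1 and H2-Q7 and no longer in that of H2-K1, and IRF matches in those of Tap2 and Nlrc5 and not of Tap1. C/EBP matches were in those of B2m and Tap2, the CTCF core again in those of Tap2 and Nlrc5, and KLF/SP in that of Tap1. PU.1-type ETS, generic ETS, AP-1 and RUNX were in none of the 9 in either list. These counts hold for the peaks alone. The 200 bases before the GENCODE start held KLF/SP in 4 genes (H2-D1, Tap1, Tap2 and Tapbp, against 37.8% of coding genes). They also held AP-1 in Tap2 and Tapbp (4.79%) and generic ETS in H2-D1 (3.07%), and PU.1-type ETS or RUNX in none. RUNX was in the RefSeq promoter of Tapbp (1.78% of RefSeq promoters). In base composition the replicate 1 promoter peaks of the 4 heavy chain genes ran from 54.7% to 59.3% GC, against a median of 63.3% for shared promoter peaks. The ratio of observed to expected CpG was 0.697 at H2-K1, 0.433 at H2-D1, 0.447 at H2-T23 and 0.0877 at H2-Q7, against a median of 0.758. These ratios depend on where the peak was placed. In the 200 bases before the GENCODE start they were 0.452 at H2-K1, 0.319 at H2-D1, 0.113 at H2-T23 and 0.397 at H2-Q7. In the replicate 1 peaks, Tap2 (0.964), Nlrc5 (1.06) and Tapbp (1.12) lay above the median of 0.758, and B2m (0.676) and Tap1 (0.625) below it.

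The rest of the pathway mostly had shared promoter peaks, and the wider class I family had them less often. Promoters were shared at 9 of 10 immunoproteasome and peptide supply genes, against 58.2% of coding genes. Here and below, the 2 scores are those of the strongest promoter peak of each list. The strongest by rank were Lnpep (150 and 115) and Tpp2 (150 and 101), which encode peptide-trimming enzymes, and Psme2 (150 and 100), which encodes a proteasome activator subunit. The exception was Psmb9, whose peaks are those of Tap1. All 8 loading chaperone genes were shared, led by Calr (150 and 101), Canx (149 and 107) and Hspa5 (150 and 93), which encode calreticulin, calnexin and the chaperone BiP.

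Of the listed genes for transcription factors known to act on class I promoters, 18 of 18 had shared promoter peaks, against 58.2% of coding genes. The 3 of highest rank were Relb (150 and 100), an NF-κB subunit, Nfya (150 and 99), an NFY subunit, and Irf2 (149 and 103). At Relb the shared peak was another one, scored 146 and 74. Interferon receptor and kinase genes were shared at 6 of 7, against the same 58.2%. The strongest by rank was Ifngr1 (150 and 104), a chain of the interferon-γ receptor, which was also the exception, since its peaks did not overlap. Ifnar1 (149 and 109) and Jak1 (149 and 96) followed.

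Other class I genes were shared at 10 of 24, below the 58.2% of coding genes, and Cd1d1 had peaks in both lists that did not overlap. Uniqueness was measured in the windows of the 9 members, not at every other class I gene. A missing peak in this family is therefore not read as closed chromatin. A promoter peak in replicate 1 alone was found at 4 of the 24, against 12.5% of coding genes. No promoter peak in either list was found at 9 of the 24, among them H2-M1, H2-M10.1 and H2-M10.5, and at 0 of the 9 class I pathway genes, against 28.8% of coding genes. The highest of the shared ones were H2-Q4 (148 and 83), H2-T24 (144 and 65) and H2-M3 (139 and 69), and the shared peak of H2-T24 scored 141 and 65. The 10 class II genes, whose products present peptides to CD4 T cells, were all shared. Their median promoter scores of 136 and 58 lay below the 147 and 79 of the 9 class I pathway genes, and their windows held a median of 11.5 shared peaks, against 8. H2-DMa (150 and 105), H2-DMb2 (145 and 74) and H2-Ab1 (147 and 71) ranked highest, and Ciita, the class II counterpart of Nlrc5, scored 108 and 16. None of these list differences was tested.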

How the data were processed

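Peaks and hotspots of DNase-seq from 4 libraries were used as deposited, on mm10 per the labels. Per the text files deposited with the samples, the libraries of each biological replicate were pooled, and the longer list of each kind belongs to replicate 1. The peak score is a whole-number score deposited by the authors, and hotspots carry a deposited −log10 q value with a ceiling of 100. Not given in the sources used here are the peak caller, its settings, the aligner and the depth.

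Of repeated entries, 46 in replicate 1 and 5 in the other list were dropped. Peaks on the autosomes, X and Y were kept, which left 236215 and 67438 peaks, while coding genes were those on the autosomes and X. Coordinates are 1-based and genes are from GENCODE M21. A promoter is within 1 kb of the start of any transcript of a coding gene, noncoding and internal starts included. Shared means an overlap of at least 1 bp, rank percentiles count ties as their middle, and windows run 30 kb beyond the gene. Motifs are exact matches in the genome and in the RefSeq promoter table (GRCm38), where 7 of the 9 members matched. Words of 36 bases, with 24 and 50 as alternatives, were counted over both strands.

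No test was made. The members and the gene lists were chosen with earlier results of these data known. All members are described, and of each other list the 3 genes of highest mean rank and up to 3 with no promoter peak in alphabetical order are named, with marker and family genes as counted. Peaks named outside promoters are among the 3 strongest shared and 2 strongest unshared of each window. Scripts were tested on simulated data (Python 3.11.15, numpy 2.4.6, pandas 2.3.3).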

Additional observations from a re-analysis of the deposited data

How the results depend on the processing

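Of 27 alternative settings, 21 left a count within 1.5 times of the one reported or a percentage within its interval or spread, and 6 did not. Some of the 21 could not have moved. Looser settings, such as a wider promoter window or either list alone, could only raise the count of promoters shared from 8 to 9. Word length was judged on the median over all 277 peaks (99.2% at 24 bases, 100% at 50). That median does not show the changes at H2-K1, H2-T23 and H2-Q7. The count of promoters shared was 8 under an overlap of at least 75 bp, narrower and wider promoter windows, the gene's 5′ end alone, the upper ranks of each list and lists of equal length, and 9 with hotspots or either list alone. The 91 shared window peaks became 49 with 10 kb on either side, and each list taken alone gave 98 to 277 peaks. The 32.9% of replicate 1 window peaks shared became 25.8% outside promoters. It became 65.5% when the replicate 1 list was cut to the length of the replicate 2 list, a change that took all peaks from 26.1% to 70%, so the share in the windows was above that of all peaks with full lists and below it with equal ones. Matches to IRF, NF-κB, CRE core and NFY numbered 9 gene and motif pairs in the strongest replicate 1 promoter peaks of 150 bp. They numbered 17 in the 300-base RefSeq promoters of 7 members and 14 in 300 bases around the GENCODE start of all 9. These counts thus differ in length and in genes covered, not in the start alone. Depth is unknown, so a peak found in replicate 1 alone may have been below detection in replicate 2.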
